A study of Mus musculus with 10 samples.

Results

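The 34 genes described here were chosen as markers of lung cells that are not myeloid. They are 13 fibroblast genes, 9 endothelial genes, 10 epithelial genes and the 2 caveolins, which endothelium, fibroblasts and alveolar epithelium share. They were listed by symbol, matched to the symbol column of the authors' 2 comparison tables, and their transcripts were summed in each of the 10 deposited library tables. All 34 were found among the 29893 genes of the annotation. The members were chosen by cell type and with their TPM and counts in these libraries known, so the levels are given as a description and support nothing by themselves.

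The libraries hold RNA of neutrophils and of CCR2+ monocytes that were sorted by flow cytometry from lungs of tumour-bearing NOD/scid mice, a strain that lacks mature T and B cells. All animals had reached end point and no group without a tumour is used here. Mice carried either HCl-001 (TN1), a tumour the design text calls highly metastatic, or HCl-002 (TN2), which it calls low metastatic. Each tumour is 1 line, so a difference between TN1 and TN2 is a difference between these 2 tumours. The 4 groups are TN1 neutrophils (n = 2, tag_191 and tag_482), TN2 neutrophils (n = 3, tag_367, tag_706 and tag_1341), TN1 monocytes (n = 2, tag_191 and tag_482) and TN2 monocytes (n = 3, tag_367, tag_706 and tag_1341). Values below follow that order of groups and of tags. The labels do not say whether tags are separate animals, so p-values measure the spread between these samples, which may be technical. Complementary DNA was made and amplified by the Smart-seq2 protocol, which starts from little RNA.

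Fibroblasts build the collagen and proteoglycan matrix of the lung, endothelial cells line its vessels, and epithelial cells line airways and alveoli and secrete surfactant. Neutrophils and monocytes are held in lung capillaries against the endothelium, and a sort for them starts from a suspension that holds all these cells. In bulk RNA, fewer cells of a type and less RNA per cell cannot be told apart.

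The genes used to check the sort separated the cell types. S100a8, a calcium-binding protein abundant in neutrophils, stood at 58661 to 122685 TPM (a level scaled for transcript length and library size) in the 5 neutrophil libraries and at 67.5 to 3802 TPM in the 5 monocyte libraries. Ccr2, the chemokine receptor used in the sort, stood at 0.905 to 18.4 TPM in neutrophils and at 128 to 340 TPM in monocytes. The lowest Ccr2 and the highest S100a8 among the monocytes were both in the TN2 library tag_706. A wider list of 12 monocyte genes summed higher in neutrophils, at 18821 to 30192 TPM, than in monocytes, at 6326 to 12536 TPM. In neutrophils most of that sum was Cd14, at 16990 to 28817 TPM. Of the 12 genes, 10 had a positive monocyte-minus-neutrophil difference and 2 a negative one. Libraries held 7239218 to 11311370 estimated counts.

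The summed level of the members varied widely between libraries of the same group. The 34 members summed to 108 and 455 TPM in TN1 neutrophils, to 412, 443 and 6.83 TPM in TN2 neutrophils, to 93.0 and 540 TPM in TN1 monocytes, and to 122, 7345 and 16.3 TPM in TN2 monocytes. The TN2 monocyte library tag_706 stood apart: it held 82597 member counts, 0.735% of its TPM, and 13.6 times the next library's sum. The tag_1341 libraries were the lowest of both cell types. In tag_1341 monocytes the leading members of the classes were Cav2 (6.33 TPM), Vwf (3.49 TPM), Pdgfrb (1.67 TPM) and Cdh1 (1.32 TPM). Which cells made these transcripts was not tested. In CPM (member counts scaled to library size), with an exact binomial 95% interval that covers counting error only, the share was 8287 (8231 to 8343) in that tag_706 library and 6.89 (5.41 to 8.65) in the TN2 neutrophil library tag_1341. Total depth was alike in the tag_706 (9967343 counts) and tag_1341 (9756124 counts) monocyte libraries.

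The number of members detected, with at least 5 estimated counts, was 20 and 20 in TN1 neutrophils, 22, 32 and 3 in TN2 neutrophils, 22 and 22 in TN1 monocytes, and 27, 34 and 5 in TN2 monocytes. The TN2 monocyte library tag_706 was the highest for 33 of the 34 members, and its level was over 5 times the next library's for 22 of 34. Over members, it held a median of 73.2% of all counts of the gene in the 10 libraries, with a range from 26.3% to 100%. Vwf and Cav2 were the 2 members with at least 5 counts in every library.

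**Figure D1:**
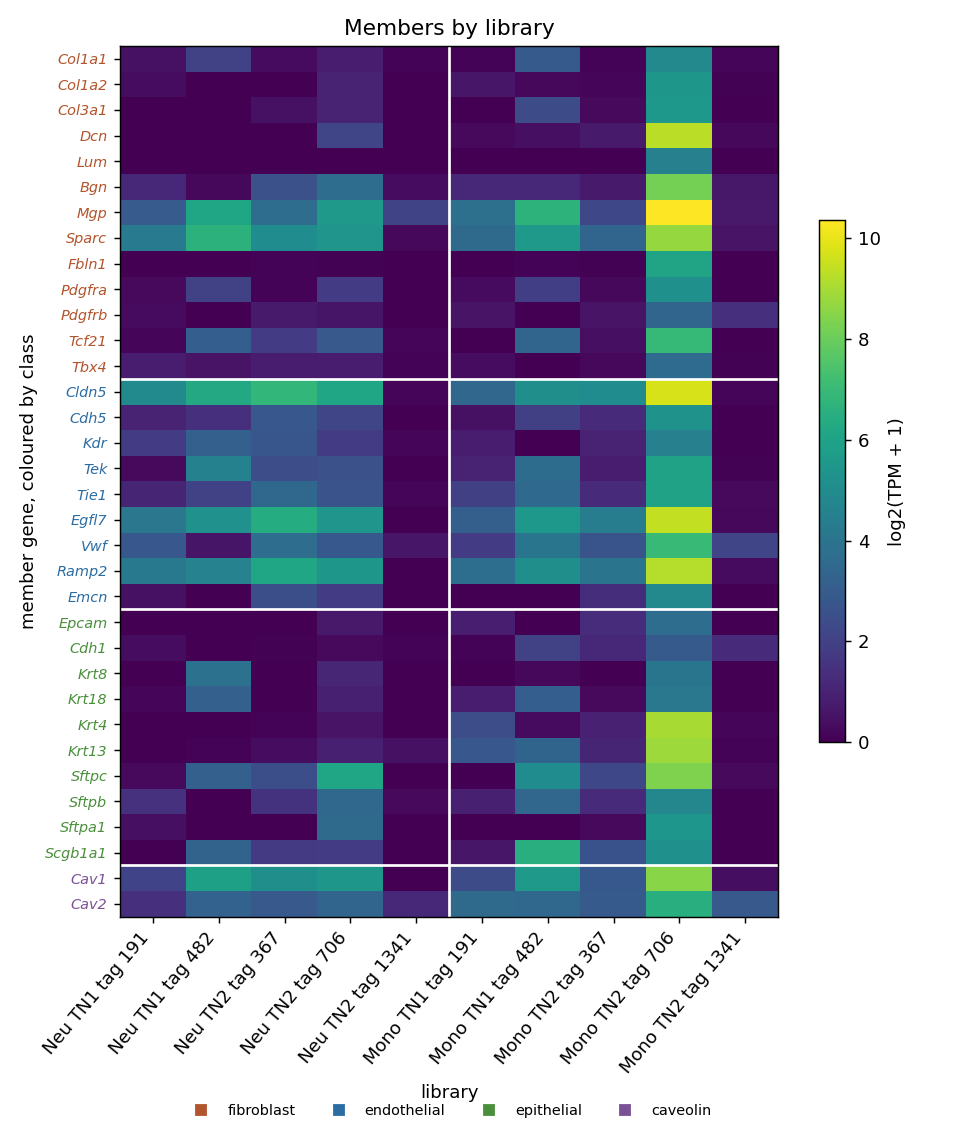
Level of each member (rows, coloured by class) in each of the 10 libraries (columns), as log2(TPM + 1). The column of TN2 monocytes tag_706 is the brightest for 33 of 34 members, and both tag_1341 columns are dark apart from a few genes such as Cav2.

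The classes were high in the same libraries for the most part, but in unequal amounts. Fibroblast members summed to 27.6 and 180 TPM in TN1 neutrophils, 52.8, 116 and 4.05 TPM in TN2 neutrophils, 27.2 and 174 TPM in TN1 monocytes, and 16.0, 3009 and 3.70 TPM in TN2 monocytes. Endothelial members summed to 73.4 and 170 TPM, to 309, 178 and 0.876 TPM, to 37.3 and 155 TPM, and to 77.9, 2447 and 4.23 TPM in the same order. Epithelial members summed to 2.68 and 38.6 TPM, to 9.15, 95.2 and 0.641 TPM, to 13.5 and 154 TPM, and to 15.3, 1435 and 1.74 TPM. In each of the 3 classes the tag_706 monocyte library was highest, by 16.7 times the next library for fibroblast, 7.92 times for endothelial and 9.35 times for epithelial members. With or without that library, the ranges of neutrophils and monocytes overlapped in each class.

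**Figure D2:**
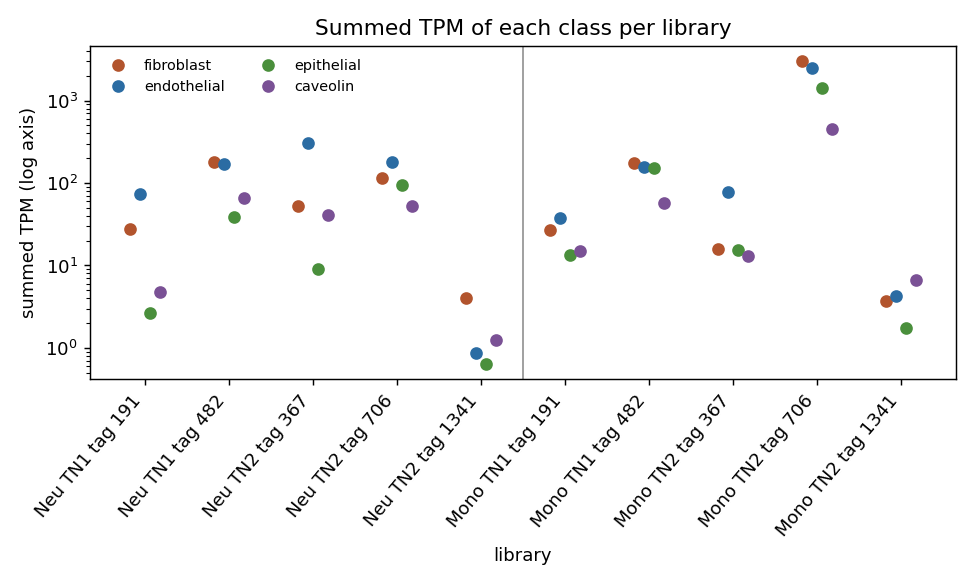
Summed TPM (log axis) of the fibroblast, endothelial, epithelial and caveolin members in each library; each point is 1 library and class, with no error bar because each is 1 library. TN2 monocytes tag_706 lie above all others in the 4 classes, and both tag_1341 libraries lie at or near the bottom.

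The make-up of the member TPM also varied. Endothelial genes made up 67.6% and 37.5% of the member TPM in TN1 neutrophils and 75.0%, 40.3% and 12.8% in TN2 neutrophils. They made up 40.1% and 28.7% in TN1 monocytes and 63.8%, 33.3% and 25.9% in TN2 monocytes. Member TPM in both tag_367 libraries and TN1 neutrophils tag_191 was therefore mostly endothelial, while fibroblast genes led in tag_706 monocytes with 41.0%. Fibroblast genes also led in TN1 neutrophils tag_482 (39.5%), TN1 monocytes tag_482 (32.3%) and TN2 neutrophils tag_1341 (59.4%). The shares in the tag_1341 libraries rest on 74 and 331 counts.

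**Figure D3:**
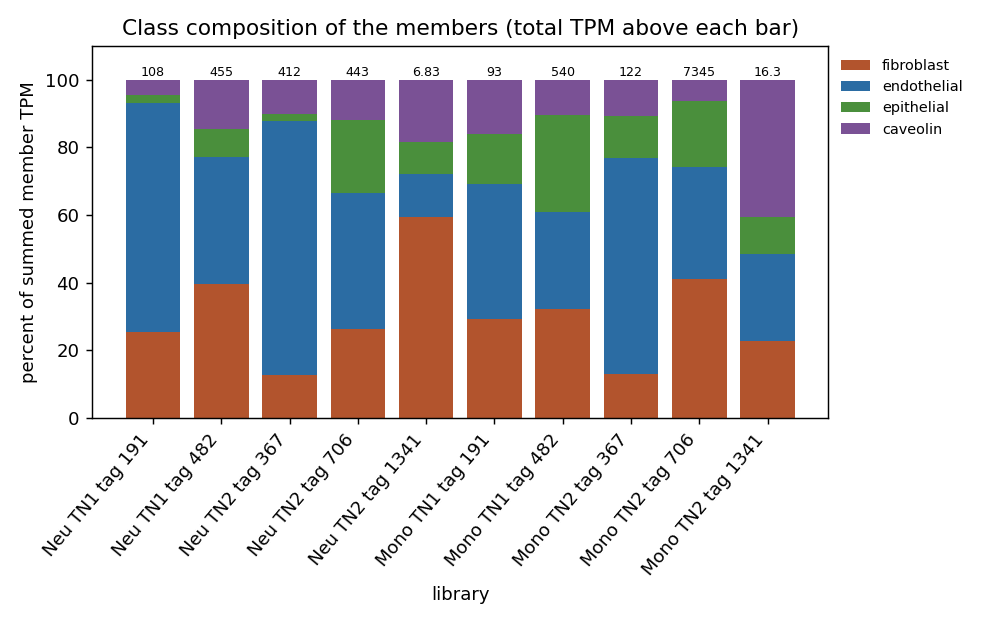
Percent of the summed member TPM that each class makes up, by library, with the summed TPM above each bar. The endothelial part is widest in TN2 neutrophils tag_367 (75.0%), TN1 neutrophils tag_191 (67.6%) and TN2 monocytes tag_367 (63.8%) and the caveolin part in tag_1341 monocytes, where the sum is 16.3 TPM.

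The upstream stretches of 4 genes are printed because the results turn on these genes: Cldn5 leads the endothelial class in most libraries, Krt13 is the 1 member called between cell types, and Cav1 and Cav2 are chromosome neighbours whose levels part in some libraries. They were chosen after the values were seen. Each is the 250 bases before the first start site in the RefSeq table (GRCm38.p6), 5′ to 3′ on the gene's strand. Capitals mark matches to any of the 6 motifs searched on both strands.
Cldn5: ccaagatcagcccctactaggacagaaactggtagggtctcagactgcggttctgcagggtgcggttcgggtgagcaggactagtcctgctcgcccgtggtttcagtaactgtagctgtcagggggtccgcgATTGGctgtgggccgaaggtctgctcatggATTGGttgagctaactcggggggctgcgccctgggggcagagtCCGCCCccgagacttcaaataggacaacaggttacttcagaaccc
Cav1: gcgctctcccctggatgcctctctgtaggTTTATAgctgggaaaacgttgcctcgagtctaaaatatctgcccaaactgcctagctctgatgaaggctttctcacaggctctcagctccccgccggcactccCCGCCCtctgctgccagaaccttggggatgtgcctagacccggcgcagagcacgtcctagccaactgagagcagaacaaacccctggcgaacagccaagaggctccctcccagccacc
Cav2: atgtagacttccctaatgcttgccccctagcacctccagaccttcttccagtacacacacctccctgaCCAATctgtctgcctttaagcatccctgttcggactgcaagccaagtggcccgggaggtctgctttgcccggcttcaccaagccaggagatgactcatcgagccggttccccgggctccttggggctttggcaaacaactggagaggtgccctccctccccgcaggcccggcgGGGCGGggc
Krt13: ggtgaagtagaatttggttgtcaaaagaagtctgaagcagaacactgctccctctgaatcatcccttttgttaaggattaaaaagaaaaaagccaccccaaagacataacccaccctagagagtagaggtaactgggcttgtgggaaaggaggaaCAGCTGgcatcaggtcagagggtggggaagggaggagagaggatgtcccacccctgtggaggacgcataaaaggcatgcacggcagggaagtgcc
The windows are chr16:18776597-18776846 (+ strand) for Cldn5, chr6:17306085-17306334 (+ strand) for Cav1, chr6:17280935-17281184 (+ strand) for Cav2 and chr11:100121567-100121816 (- strand) for Krt13.

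The 6 motifs were also chosen after the values were seen, and each is reported. A CCAAT box (CCAAT) was found upstream of 4 of the 22 members in the table (Krt13 through another start site than the printed one), against 37.5% of all genes in it, and the GC box (GGGCGG) upstream of 10 of 22, against 35.4%. The TATA box (TATAAA) was upstream of 4 of 22, against 14.3%. The letters CCGGAA, the core of ETS factor sites, were upstream of 1 of 22, against 13.6%, and the E-box CAGCTG, which reads the same on both strands, of 6 of 22, against 14.7%. One form of the CArG box, the serum response element, was upstream of 0 of 22, against 0.074%. Cldn5 held CCAAT on the reverse strand at -118 and -88 and a reverse GC box at -45, counted from -1 at the base before the start. Cav1 held a reverse TATA box at -221 and a reverse GC box at -118, Cav2 a CCAAT box at -182 and a GC box at -9, and Krt13 the E-box at -95. Each match is a description of letters only.

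Among the fibroblast members, the fibrillar collagens were low or absent in most libraries. Col1a1, the alpha 1 chain of type I collagen (chr11:94936224-94953042), had 19 and 137 counts in TN1 neutrophils, 11, 27 and 3.21 in TN2 neutrophils, 3 and 269 in TN1 monocytes, and 3, 1346 and 5 in TN2 monocytes. Col3a1, the chain of type III collagen, had 163 counts in TN1 monocytes tag_482 and 1970 in TN2 monocytes tag_706, and at most 51 in any other library. Col1a2, the alpha 2 chain of type I collagen, had 1832 counts in that tag_706 library and 88.0 in the other 9 together. The 2 type I chains therefore did not appear in step: in TN1 monocytes tag_482 Col1a1 had 269 counts and Col1a2 had 2.

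Small proteoglycans, which bind collagen fibrils, came almost wholly from 1 library. Dcn (decorin) had 8427 counts in TN2 monocytes tag_706, 52 in TN2 neutrophils tag_706, 10 in TN2 monocytes tag_367 and at most 4 in the other 7. Lum (lumican) had 337 counts in TN2 monocytes tag_706 and 0 in every other library. Bgn (biglycan) was spread wider, at 1.31 and 0.167 TPM in TN1 neutrophils, 4.90, 11.9 and 0.260 in TN2 neutrophils, 1.30 and 1.27 in TN1 monocytes, and 0.669, 293 and 0.572 in TN2 monocytes. Summed, the 3 reached 933 TPM in tag_706 monocytes and at most 15.3 TPM elsewhere. Fbln1 (fibulin 1), another matrix protein, had 1481 counts there and 4 in the other 9 together.

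Mgp and Sparc were the fibroblast members seen most widely. Mgp, matrix Gla protein, an inhibitor of calcification, stood at 6.93 and 66.4 TPM in TN1 neutrophils, 11.9, 47.0 and 3.39 in TN2 neutrophils, 13.2 and 102 in TN1 monocytes, and 3.78, 1303 and 0.644 in TN2 monocytes. Sparc, a matrix protein that binds collagen and is also made by endothelium and platelets, stood at 17.5 and 99.3, at 31.3, 40.9 and 0.157, at 10.8 and 47.2, and at 9.26, 415 and 0.469 TPM in that order. Both were high in the tag_482 libraries of both cell types, and the groups overlapped. The tag_482 libraries also stood apart in mitochondrial transcripts, which made up 3.002% of TPM in TN1 neutrophils tag_482 against 0.283% to 0.813% in the other neutrophils, and 19.9% in TN1 monocytes tag_482 against 4.82% to 5.82% in the other monocytes. They had the fewest genes with at least 5 counts of their cell types, 8851 and 9732. The part of these differences in the tag_482 levels here and below was not tested.

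The lineage factors and receptors followed. Tcf21, a transcription factor of lung fibroblasts, stood at 7.51 TPM in TN1 neutrophils tag_482, 9.25 in TN1 monocytes tag_482, 6.43 in TN2 neutrophils tag_706 and 122 in TN2 monocytes tag_706, and at most 2.56 elsewhere. Tbx4, a factor of lung mesenchyme, stayed at or under 0.768 TPM outside tag_706 monocytes, where it reached 11.4 TPM. Pdgfra, the platelet-derived growth factor receptor alpha of fibroblasts, had 1890 counts in tag_706 monocytes and 124 to 161 in TN1 neutrophils tag_482, TN2 neutrophils tag_706 and TN1 monocytes tag_482. Pdgfrb, the receptor beta of pericytes and fibroblasts, had 11 and 0 counts in TN1 neutrophils, 28, 24 and 0 in TN2 neutrophils, 16 and 0 in TN1 monocytes, and 22, 402 and 70 in TN2 monocytes. In tag_1341 monocytes it was 1 of the 5 members detected.

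Among the endothelial members Cldn5 was the most abundant in 6 of the 10 libraries. Cldn5, the tight-junction protein of endothelium (chr16:18776847-18778262), stood at 29.1 and 74.5 TPM in TN1 neutrophils, 113, 69.0 and 0.0909 in TN2 neutrophils, 9.66 and 34.9 in TN1 monocytes, and 31.7, 848 and 0.103 in TN2 monocytes. Every library other than the tag_1341 pair held at least 79 counts of it. Egfl7, a secreted vascular protein, stood at 16.1 and 37.0, at 83.9, 40.8 and 0, at 7.78 and 44.9, and at 19.6, 679 and 0.182 TPM. Ramp2, a partner of the adrenomedullin receptor, stood at 17.0 and 23.2, at 68.9, 43.6 and 0, at 12.3 and 34.8, and at 15.0, 578 and 0.229 TPM. In the 8 libraries where ratios of TPM could be taken, that of Cldn5 to Egfl7 lay between 0.776 and 2.01 and that of Cldn5 to Ramp2 between 0.785 and 3.21.

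The other endothelial genes were less abundant in most libraries. Cdh5, VE-cadherin of endothelial junctions, stood at 1.07 and 1.60, at 6.07, 3.44 and 0, at 0.390 and 2.86, and at 1.32, 39.2 and 0 TPM. The ratio of Cldn5 to Cdh5 in the same 8 libraries was 12.2 to 46.7. Tek, the angiopoietin receptor, was high in both tag_482 libraries, at 22.4 TPM in neutrophils and 11.8 in monocytes, against 61.3 in tag_706 monocytes and at most 4.92 elsewhere. Its relative Tie1 reached 61.1 TPM in tag_706 monocytes and 10.6 and 10.3 in TN1 monocytes tag_482 and TN2 neutrophils tag_367. Kdr, the main receptor for vascular endothelial growth factor, had 364 counts in TN1 neutrophils tag_482 but 1 in TN1 monocytes tag_482, where Tek had 141. Emcn, endomucin of capillaries and veins, was at 0 in 5 libraries and reached 28.6 TPM in tag_706 monocytes.

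Vwf, von Willebrand factor, which endothelium and megakaryocytes make, was seen in all 10 libraries, and in 7 of them most of all on a transcript that is annotated as a target of nonsense-mediated decay. It stood at 5.93 and 0.484 TPM in TN1 neutrophils, 11.9, 6.13 and 0.538 in TN2 neutrophils, 2.49 and 15.1 in TN1 monocytes, and 5.51, 130 and 3.49 in TN2 monocytes. That transcript took 66.9% of its counts over all libraries, and the full-length protein-coding transcript 18.9%. In tag_1341 monocytes 40.6 of 58.3 Vwf counts were on it, but in TN1 monocytes tag_482 0 of 39.9 were. In the TN1 neutrophil library tag_482 and the TN2 neutrophil library tag_1341 it held 1 of 7.19 and 1 of 9.73 Vwf counts. The full-length protein-coding transcript had 0 counts in both of these libraries and in TN1 monocytes tag_482. In tag_1341 neutrophils 8.73 of the Vwf counts were on a transcript annotated as a retained intron. In TN1 monocytes tag_482 14.9 were on that transcript and 25 on a processed transcript. Sftpb likewise had 68.5% of its counts on a transcript annotated to decay, and the other 32 members were led by a protein-coding transcript when the libraries were summed.

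**Figure D4:**
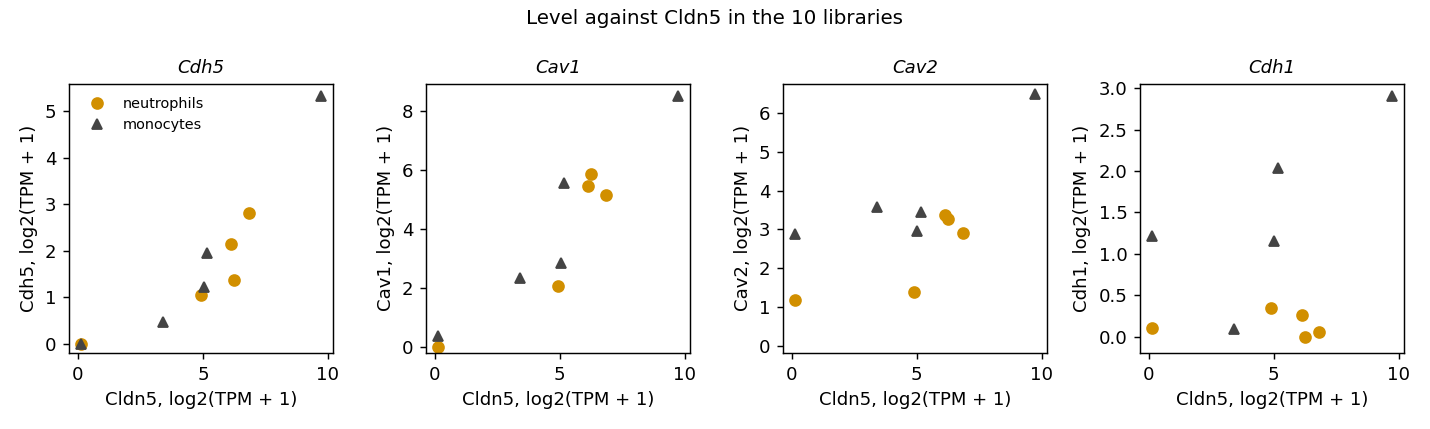
Level of Cdh5, Cav1, Cav2 and Cdh1 (y axes) against Cldn5 (x axis), all as log2(TPM + 1), 1 point per library, circles for neutrophils and triangles for monocytes. Cav2 and Cdh1 are at 6.33 and 1.32 TPM in tag_1341 monocytes, where Cldn5 is at 0.103 TPM.

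The caveolins coat membrane pits of endothelium, and the pair did not move as one. Cav1 (chr6:17306335-17341452), the coat's main subunit, stood at 3.20 and 57.2 TPM in TN1 neutrophils, 34.8, 43.5 and 0 in TN2 neutrophils, 4.09 and 46.8 in TN1 monocytes, and 6.18, 365 and 0.310 in TN2 monocytes. Cav2 (chr6:17281185-17289115), its partner, stood at 1.62 and 8.68, at 6.45, 9.32 and 1.26, at 10.9 and 9.99, and at 6.73, 89.6 and 6.33 TPM. Cav1 exceeded Cav2 by 4.07 to 6.60 times in both tag_482 libraries, both tag_706 libraries and TN2 neutrophils tag_367. The ratio was 1.98 in TN1 neutrophils tag_191, 0.374 in TN1 monocytes tag_191 and 0.918 in TN2 monocytes tag_367. In tag_1341 monocytes Cav2 had 129 counts beside 2 of Cav1.

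Among the epithelial members, the squamous keratins stood out in 1 library. Krt13 (chr11:100117327-100121566), a keratin of stratified mucosa, had 0 and 1 counts in TN1 neutrophils, 3, 12 and 1 in TN2 neutrophils, 58 and 94 in TN1 monocytes, and 14, 5360 and 1 in TN2 monocytes. Its keratin partner Krt4 (chr15:101918535-101924735) had 0 and 0 counts in TN1 neutrophils, 1, 8 and 0 in TN2 neutrophils, 59 and 3 in TN1 monocytes, and 16, 8104 and 2 in TN2 monocytes. The pair summed to 956 TPM in tag_706 monocytes and to at most 10.4 TPM elsewhere. Of the 5 monocyte libraries, 4 held more Krt13 counts than any neutrophil library, and tag_1341 monocytes held 1. Markers of squamous and basal epithelium outside the members (14 genes) summed to 888 TPM in the same library, to 1.78 to 24.7 TPM in the other monocytes and to 0.457 to 15.4 TPM in neutrophils.

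The simple keratins and adhesion genes of other epithelium were low. Krt8, a keratin of simple epithelium, had 201 counts in tag_706 monocytes and 179 in TN1 neutrophils tag_482, with at most 17 elsewhere. Its partner Krt18 had 165 and 78 counts in those 2 libraries and 64 in TN1 monocytes tag_482. Epcam, an epithelial adhesion protein, was at 0 in 6 libraries and had 184 counts in tag_706 monocytes. Cdh1, E-cadherin, had 10.1 and 0 counts in TN1 neutrophils, 1.31, 7.86 and 3 in TN2 neutrophils, 2 and 94 in TN1 monocytes, and 47, 229 and 45 in TN2 monocytes. The tag_1341 monocytes thus held 45 counts of Cdh1 with 0 of Epcam, Krt8 and Krt18.

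Secreted products of airway and alveolar cells differed in their order. Scgb1a1, the club cell secretory protein, was the 1 member not highest in tag_706 monocytes. It stood at 0 and 8.68 TPM in TN1 neutrophils, 2.36, 2.45 and 0 in TN2 neutrophils, 0.551 and 91.6 in TN1 monocytes, and 5.13, 35.9 and 0 in TN2 monocytes. Sftpc, surfactant protein C of alveolar type 2 cells, stood at 0.189 and 8.04, at 4.60, 67.3 and 0, at 0 and 32.2, and at 3.77, 323 and 0.210 TPM. Both tag_706 libraries were the highest for Sftpc, Sftpb and Sftpa1, 3 surfactant proteins. Sftpa1 had 109 counts in TN2 neutrophils tag_706 and 382 in TN2 monocytes tag_706, and at most 5 elsewhere.

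Of 14 further lists of marker genes, which share only Sftpa1 with the members, 9 had their highest sum in tag_706 monocytes. Further fibroblast genes summed to 7904 TPM there, against 371 to 707 TPM in other monocytes and 357 to 696 in neutrophils. Most of that sum in the other monocytes was Gsn, at 177 to 380 TPM, and Fn1, at 54.3 to 241 TPM. In tag_706 monocytes these were at 3310 and 129 TPM. Fn1 is also on the monocyte list. Pericyte and smooth muscle genes summed to 504 TPM, against 4.41 to 18.5 and 36.1 to 65.3 TPM. Further endothelial genes summed to 2903 TPM, against 35.0 to 256 and 14.6 to 318 TPM, and lymphatic endothelial genes to 520 TPM, against 0.650 to 15.5 and 2.53 to 41.5 TPM. Mesothelial genes summed to 137 TPM, against 0.746 to 20.5 and 0.509 to 11.3 TPM. Krt19, which is also on the squamous and basal list, stood at 61.8 TPM in tag_706 monocytes and 19.3 TPM in TN1 monocytes tag_482. Msln and Upk3b of the mesothelial list were at 30.3 and 25.9 TPM in tag_706 monocytes and at 0 in TN1 monocytes tag_482. Alveolar type 1 genes summed to 825 TPM, against 97.2 to 258 and 118 to 238 TPM. Hopx of that list stood at 270 TPM in tag_706 monocytes, 63.9 to 203 TPM in the other monocytes and 86.2 to 122 TPM in neutrophils. Ager of that list stood at 354 TPM in tag_706 monocytes and 1.02 to 94.6 TPM in the other monocytes. Airway genes summed to 949 TPM, against 238 to 754 and 22.1 to 66.7 TPM. Most of the airway sum in the other monocytes was Tppp3, at 226 to 739 TPM, against 409 TPM in tag_706 monocytes. Cyp2f2 and Aldh1a1 of that list reached 79.9 and 333 TPM in tag_706 monocytes, against at most 0.089 and 1.82 TPM in the other monocytes. Only as a sum did alveolar type 2 genes, among them the member Sftpa1 (42.3 TPM in tag_706 monocytes), go the other way. Their sum was 526 TPM in tag_706 monocytes, below the 575 to 813 TPM of other monocytes and above the 223 to 408 TPM of neutrophils. Most of that sum was Napsa, an aspartic protease, at 387 TPM in tag_706 monocytes and 747 TPM in tag_1341 monocytes. Of the 11 genes on the list, 10 had at least 5 counts in tag_706 monocytes, against 4 to 7 in the other monocytes. Neutrophils tag_706 also had 10. Abca3 and Lpcat1 of that list were at 14.4 and 6.92 TPM in tag_706 monocytes. They reached 15.1 TPM in tag_367 monocytes and 13.1 TPM in TN1 monocytes tag_482. Erythroid genes were highest in TN1 monocytes tag_482 (446 TPM), against 100 TPM in tag_706 monocytes. Neutrophil markers summed to 8218 TPM in that library, above 218 to 2868 TPM in the other monocytes and far below the 129829 to 215204 TPM of neutrophils. The alveolar macrophage list was highest in tag_1341 monocytes (11126 TPM, against 5973 TPM in tag_706 monocytes), but nearly all of it was Chil3, at 11047 and 5256 TPM. Car4 and Siglecf of the same list were lower in tag_1341 than in tag_706 monocytes, at 0 against 209 TPM and 3.09 against 15.9 TPM. Neither is particular to that list's cells here: Car4 is also on the further endothelial list, and Siglecf stood at 11.8 to 28.9 TPM in neutrophils. The part of these other cells in the member levels was not tested.

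Between cell types, 1 of the 32 members with enough counts to test was called higher in monocytes and 0 lower (edgeR quasi-likelihood test, Benjamini-Hochberg over 13384 genes), while 15.5% of all tested genes were called higher and 12.4% lower. The 1 call was Krt13, at a log2 difference of 7.07 ± 2.13 (SE) and an adjusted p of 0.0334. Here and below, SE is worked back from the test's F statistic and is approximate. Krt4 had a log2 difference of 8.40 ± 2.80 (SE) and an edgeR adjusted p of 0.0530, and Cdh1 3.44 ± 1.40 (SE) and 0.0943. Cldn5 had -0.19 ± 1.53 (SE) and an edgeR adjusted p of 0.945, and Cav2 0.60 ± 0.89 (SE) and 0.643. No member had groups that did not overlap in TPM in either direction, against 25.2% and 6.17% of tested genes. Lum and Fbln1 were not tested because they failed the count filter. Since members were chosen with these levels known, the calls are no independent support.

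The direction of the members between cell types depended on single libraries. With all 10 libraries, 24 of 32 members had a positive monocyte-minus-neutrophil difference, with a median of 1.20 on the log2 scale against 0.46 over all genes. Without TN2 monocytes tag_706, 7 of 30 were positive, the median was -1.55 and 16 of 30 had turned from positive to negative. In that fit Krt13 had an edgeR adjusted p of 0.10 and a log2 difference of 3.17. Without TN1 monocytes tag_482, 15 of 34 members were positive and the median was -0.26, with 11 of 32 turned from positive to negative. With the tag number as a replicate block, 16 of 32 were positive and the median was 0.16. Leaving out TN1 neutrophils tag_191 or tag_482, TN2 neutrophils tag_367 or tag_1341, or TN1 monocytes tag_482 also ended the Krt13 call, with edgeR adjusted p of 0.127, 0.120, 0.0643, 0.0575 and 0.0597. DESeq2 gave Krt13 no p-value, and DESeq2 called Cdh1 in its place (adjusted p = 0.0141).

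Between tumours in neutrophils, 0 of 32 members were called by edgeR in either direction, as were 0 of all tested genes (0%), of which 625 had an unadjusted p under 0.05. Of the members, 0 had such a p in edgeR, and DESeq2 also called 0. The median of the members was 0.67, against 0.22 over all genes, and 19 of 32 were positive. Krt13 was the 1 member whose TN2 libraries all lay above its TN1 libraries, at 0.257, 0.886 and 0.363 against 0 and 0.0851 TPM; 10.2% of tested genes did so, and 6.87% did so in the other direction, with 0 members. Its highest count in any of these libraries was 12. Cldn5 had a log2 difference of 0.17 ± 2.17 (SE).

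Between tumours in monocytes, 0 of 32 members were called by edgeR (0% of all genes were called, and 379 had an unadjusted p under 0.05), although 30 of 32 differences were positive with a median of 2.51 against 0.22 over all genes. Of the members, 2 had an unadjusted p under 0.05 in edgeR, and DESeq2 also called 0. Without tag_706 monocytes, 4 of 30 were positive and the median was -2.53. Cldn5 had a log2 difference of 3.18 ± 2.48 (SE) with all libraries and -0.79 without that library, and Mgp 2.32 ± 2.38 (SE) and -5.04. Scgb1a1 had -2.35 ± 2.36 (SE) with all libraries and 3.88 without TN1 monocytes tag_482. Pdgfrb was the 1 member whose TN2 libraries all lay above its TN1 libraries, at 0.469, 9.29 and 1.67 against 0.454 and 0 TPM; 21.7% of tested genes did so, and 2.67% did so in the other direction, with 0 members. Its log2 difference was 3.72 ± 2.47 (SE) and its edgeR adjusted p was 1. The difference of tumour effects between cell types was called for 0 of 32 members and 0% of all genes, of which 472 had an unadjusted p under 0.05 in edgeR; for the members 0 did, and DESeq2 called 0 of them.

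**Figure D5:**
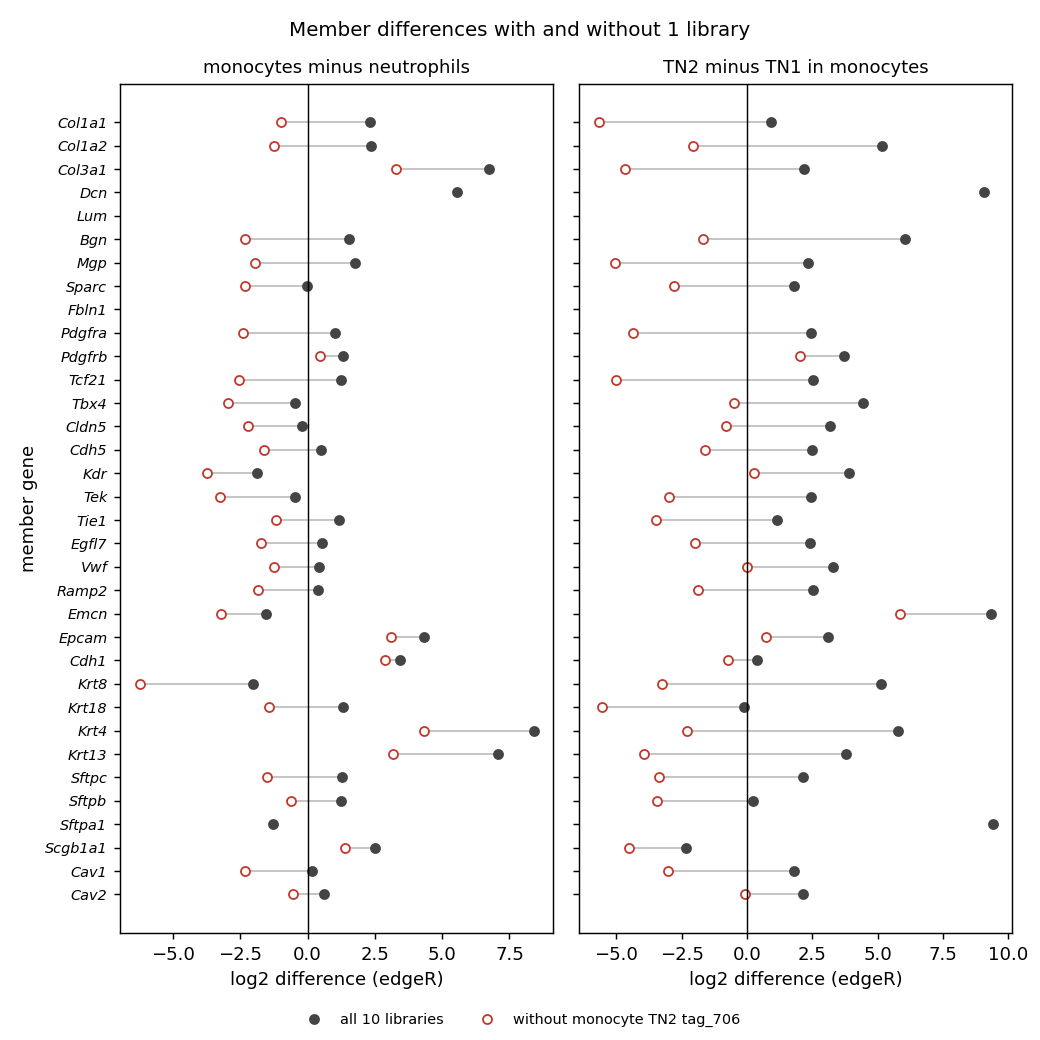
Log2 difference of each member (rows) between cell types (left) and between tumours in monocytes (right), from edgeR with all 10 libraries (filled) and without TN2 monocytes tag_706 (open). Of 30 members in both fits, 16 turned from positive to negative on the left and 24 on the right.

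In the authors' deposited tables of TN2 against TN1, no member passed either: the smallest raw p was 0.171 (Pdgfrb) in monocytes and 0.0957 (Krt13) in neutrophils, and each adjusted p was 1. In neutrophils the authors marked 11 of the 34 members, Krt13 among them, as insufficiently expressed and gave no fold. In monocytes they so marked 1, Sftpb. The authors' deposited tables list Sftpb at 0 in both cell types, though the library tables hold up to 285 counts of it.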

How the data were processed

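Per the labels, RNA from 10 sorted libraries was amplified by Smart-seq2 and sequenced, and the authors quantified it with kallisto 0.42.3 on GRCm38 transcripts. Per the file headers, each deposited table gives estimated counts, which need not be whole, and TPM (with transcript and effective lengths). The authors' 2 deposited comparison tables give group means that equal means of log2(TPM + 1) for most members, a signed fold as a score, and raw and adjusted p-values; per the design text they come from AltAnalyze.

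Here transcripts were summed to genes with GENCODE M21. Unmatched transcripts (1.94% to 3.59% of counts) were left out. Estimated counts were rounded and tested with edgeR 4.0.16 (R 4.3.3; quasi-likelihood, TMM, filterByExpr with a minimum total of 10, 13384 genes, 6 residual degrees of freedom), at an adjusted p of 0.05. The 4 groups shared 1 spread. The edgeR SE is the absolute log2 difference divided by the square root of the F statistic, not a fitted standard error. Alternatives were RLE scaling, DESeq2 1.42.0, no filter, limma 3.58.1 on log2(TPM + 1) and log2(TPM + 0.1), a tag block and leaving out each library. The edgeR script was tested on simulated data. All 34 members are named; markers of other cells are given as sums, and genes checking the sort by name. Members, lists, motifs and promoters were chosen with earlier results of these data known. Intervals cover counting error only, since the libraries carry no molecular barcodes.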

Additional observations from a re-analysis of the deposited data

How the results depend on the processing

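The monocyte-minus-neutrophil count of members called higher was 1 in the reported fit, 2 with no filter, 4 with the tag number as a replicate block (Col1a2, Dcn, Krt13 and Krt4) and 0 to 2 when 1 library was left out. DESeq2 and both limma settings called Cdh1 instead of Krt13. With the block, 32 members were tested, and 1793 of 13384 genes were called higher and 1542 lower. DESeq2 called 3060 of 13384 genes higher and 2200 lower. Of all genes tested, 15.5% were called higher in the reported fit, 33.9% and 32.0% in limma on log2(TPM + 1) and log2(TPM + 0.1), 9.64% with no filter and 9.30% to 15.8% without 1 library; 12.4% were called lower, 7.31% with no filter and 8.08% to 12.99% without 1 library. Same-tag correlations of deviations were 0.0931 (tag_191 and tag_482), -0.0228 (tag_367), 0.372 (tag_706) and 0.327 (tag_1341). For tag_706 and tag_1341 they were above those with other tags, at most -0.236 and 0.190, while for tag_367 they were not (0.110). A TN1 group has 2 libraries, so their deviations mirror each other and both tags must give the same value. In the TN2 groups of 3 the deviations sum to 0, so those values are not independent either. Such correlations cannot decide whether tags are pairs. The labels do not say what a tag marks, and since not every value was over 0.1 the tags were not used as pairs in the reported fit. No paired analysis was possible for TN2 against TN1 because the tumours share no tag. The block fit of the difference of tumour effects was chosen after seeing the data and called 0 members and 0 genes.

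For TN2 minus TN1 in neutrophils, where the reported fit called 0%, the shares of genes called higher and lower were 0.583% and 0.0672% with DESeq2, 0.00978% higher with no filter, 0.00747% lower in limma on log2(TPM + 1), 0.0149% and 0.00747% in limma on log2(TPM + 0.1), and 0% to 3.15% and 0% to 0.143% without 1 library, the highest without TN1 neutrophils tag_191. In monocytes they were 0.127% and 0.0374% with DESeq2 and 0% to 0.814% and 0% to 0.0129% without 1 library, the highest without TN1 monocytes tag_191. For the difference of tumour effects they were 0.0523% and 0.172% with DESeq2, 0.00489% lower with no filter, and 0% to 0.433% and 0% to 2.39% without 1 library, the highest without TN1 monocytes tag_191 and TN1 neutrophils tag_191. None of these settings called a member between tumours.

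Among printed differences, the sign turned for Cldn5 between cell types without 1 library (-2.22 to 0.23), with 0.23 and 0.13 without TN1 neutrophils tag_482 and TN2 neutrophils tag_367, and for Cav2 (-0.54 to 1.65), with -0.54 without TN2 monocytes tag_706. Between tumours in neutrophils Cldn5 was -1.21 and -2.03 in the 2 limma settings and -0.47 to 1.03 without 1 library, below 0 without tag_191, tag_367 and tag_706 neutrophils. In monocytes Cldn5 was -0.068 in limma on log2(TPM + 0.1) and -0.79 to 4.28 without 1 library, Mgp was -0.82 and -1.25 in limma and -5.04 to 4.35 without 1 library, and Scgb1a1 was -4.52 to 3.88 without 1 library. The turns came without TN2 monocytes tag_706 for Cldn5 and Mgp and without TN1 monocytes tag_482 for Scgb1a1. Over all members, leaving out 1 library turned the sign of up to 16 of 30 differences between cell types, 11 of 32 between tumours in neutrophils, 24 of 30 between tumours in monocytes and 20 of 30 in the difference of tumour effects. The other settings turned up to 8 of 32 (the replicate block), 6 of 32, 11 of 32 and 5 of 32 (limma on log2(TPM + 0.1)) in that order. The cause was not tested beyond the libraries named. DESeq2 gave Krt13, Krt4 and Mgp no p-value in some comparisons, so those have no verdict.

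A minimum of 20 counts left 12, 1, 12 and 16 members detected in TN1 neutrophils tag_191, TN2 neutrophils tag_1341, TN1 monocytes tag_191 and TN2 monocytes tag_367, and a minimum of 1 count gave 14 and 20 in tag_1341 neutrophils and monocytes.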
